A study of Mus musculus with 12 samples.

Results

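The comparison described here sets mouse lung myofibroblasts taken 3 days after birth (P3) against the same sorted population taken before birth, at the embryonic stage E17.5. It uses 6 of the 12 RNA-seq libraries of a study that followed these cells to postnatal days 7 and 10 (P7 and P10), with 3 libraries at each stage. The members were chosen by stage alone, and every difference is given as P3 minus E17.5. In all libraries the mice had the genotype Acta2-dsRed+, Pdgfra-GFP+: Acta2, the smooth muscle actin gene, marks red cells, Pdgfra, a platelet-derived growth factor receptor gene, marks green cells, and cells positive for both colours were sorted from dissociated whole lung. Whether each library was made from its own animal, from a litter or from a pool is not in the labels, nor are strain and sex. The p-values below therefore reflect variation from library to library within a stage, and this variation could be technical.

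Cells that carry both markers are known in the lung as secondary crest myofibroblasts or their precursors. They lie at the tips of the ridges that divide the distal airspaces after birth, where they contract and lay down elastic fibres. Between these stages the lung passes from a fluid-filled organ, in a fetus whose adrenal glands release rising amounts of glucocorticoid towards term, to an air-breathing one. Receptors decide which hormones and neighbours a fibroblast can answer, channels and pumps set its membrane potential and calcium, guidance proteins steer its position, and its enzymes supply building blocks for growth and matrix.

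Estimated counts summed to between 16401784 and 18740591 in the 6 libraries, with between 20234 and 20990 genes above 0. RNA of the 7SL and 7SK families took from 34.8% to 46.3% of the counts, most in E17.5 replicate 2, and levels are given in CPM, counts scaled to a common library size with TMM factors. Of 28004 genes listed, 16827 were tested, and 25.1% of them were called at an adjusted p under 0.05 by edgeR's quasi-likelihood test, 13.1% higher and 12% lower at P3. The median log2 fold change over all tested genes was −0.05. A call is named kept below where it was also made in each of the 6 fits that left out 1 of these libraries, which held for 14.3% of all tested genes. Without E17.5 replicate 2 or P3 replicate 2 the number of genes called lower went from 2024 to 1341 and 1261.

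E17.5 replicate 1 stood apart from the other E17.5 libraries. The 16 markers of alveolar fibroblasts and lipofibroblasts, the neighbouring fibroblasts of the airspace wall, summed to 4600 CPM there against 1390 and 1170 CPM in replicates 2 and 3 and between 982 and 1430 CPM at P3, and 15 of the 16 had their highest value of the 6 libraries in it. Tcf21, a transcription factor of these fibroblasts, read 359 CPM in replicate 1 and 96.2 and 93.6 CPM in the others. The summed markers of secondary crest myofibroblasts were lowest in the same library, at 3200 CPM against 5170 and 5020 CPM. Without that library 1964 genes were higher and 1700 lower at P3, against 2201 and 2024 with it. Of the 2201 and 2024 calls, 1729 and 1544 were made again without it. The part of these cells in the results was not tested. Every gene named below as changed also passed without this library unless stated otherwise. For genes named by the rule given at the end, passing without it was a condition of being named.

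Of other cell types, immune markers summed to between 10.9 and 12.8 CPM at E17.5 and between 19.5 and 23.9 CPM at P3, with 3 of 8 tested higher and none lower (1 without E17.5 replicate 1, P3 replicate 1 or P3 replicate 2). Lyz2, a lysozyme gene, was the largest part of the sum, at between 5.11 and 6.18 CPM and then between 11.9 and 16.3 CPM. Of the other markers on that list, Cd68 read between 3.21 and 4.22 CPM and then between 2.57 and 4.04 CPM. Csf1r read between 0.389 and 1.16 CPM and then between 0.477 and 0.627 CPM. Ptprc, the common leukocyte antigen, was at no more than 0.285 CPM in any library. Summed endothelial markers lay between 325 and 564 CPM at E17.5 and between 125 and 180 CPM at P3, with Ednrb the largest part of it at E17.5, while Pecam1 stayed between 2.93 and 5.91 CPM. Of the 15 tested endothelial markers 3 fell, none rose and 12 were not called, with a median log2 fold change of 0.01. Erythroid markers summed to between 117 and 180 CPM at E17.5 and between 31.8 and 53.7 CPM at P3. Airway markers went the other way, from between 15.2 and 27.5 CPM to between 85.2 and 139 CPM. Tppp3, at between 73.2 and 89.4 CPM, was the largest part of the sum at P3. Foxj1, on the same list, was at no more than 0.676 CPM in any library. Scgb3a2 read 2.92, 1.46 and 7.35 CPM and then 0.409, 1.71 and 6.69 CPM. Of 5 tested airway markers 2 rose and none fell, with Tppp3 kept as a rise and Scgb1a1 called but not kept (no call without E17.5 replicate 2, E17.5 replicate 3 or P3 replicate 3). The pericyte and vascular smooth muscle markers summed to between 423 and 614 CPM and then to between 250 and 315 CPM. Postn was the largest part of that sum, at between 131 and 215 CPM and then between 81.9 and 131 CPM. Of 14 tested markers 5 were lower, none higher and 9 not called. Among those not called, Pdgfrb read between 22.9 and 41.3 CPM and then between 28.1 and 36.1 CPM. Mcam read between 46.3 and 70.9 CPM and then between 63.1 and 80.2 CPM. The part of these cell types in the results below was not tested, and in sorted bulk RNA fewer cells of a type and less RNA per cell cannot be told apart.

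The sorting genes themselves moved in opposite directions. Acta2 read 347, 432 and 696 CPM at E17.5 and 1016, 984 and 1075 CPM at P3. Pdgfra read 268, 409 and 361 CPM and then 207, 165 and 165 CPM. The stages overlapped for neither gene, as for 38.9% of all tested genes. Pdgfra fell by 0.95 ± 0.19 on the log2 scale (adjusted p = 0.0043), a kept call. The rise of Acta2 was 1.06 ± 0.28 (SE; adjusted p = 0.0183), and it did not pass without E17.5 replicate 1 (0.86, adjusted p = 0.0581), E17.5 replicate 2 (0.98, adjusted p = 0.0756) or P3 replicate 3 (1.03, adjusted p = 0.0506).

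The gene lists described next cover 1304 tested genes in 44 lists, of which 178 rose and 273 fell. Their median log2 fold change was −0.13. Of all 16827 tested genes 2201 rose and 2024 fell, with a median of −0.05. Falls outnumbered rises among the list members but not among all tested genes. A single list with more falls than rises therefore has the direction of the 1304 list members pooled. Separate stages and a kept call were conditions of the rule by which list members were named. Where such a gene is said below to have separate stages, this was fixed by that choice. The plot of calls by list gives each list's share in both directions beside the shares over all tested genes. The share called in either direction over all tested genes, 25.1%, is the background for every list count below.

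**Figure D1:**
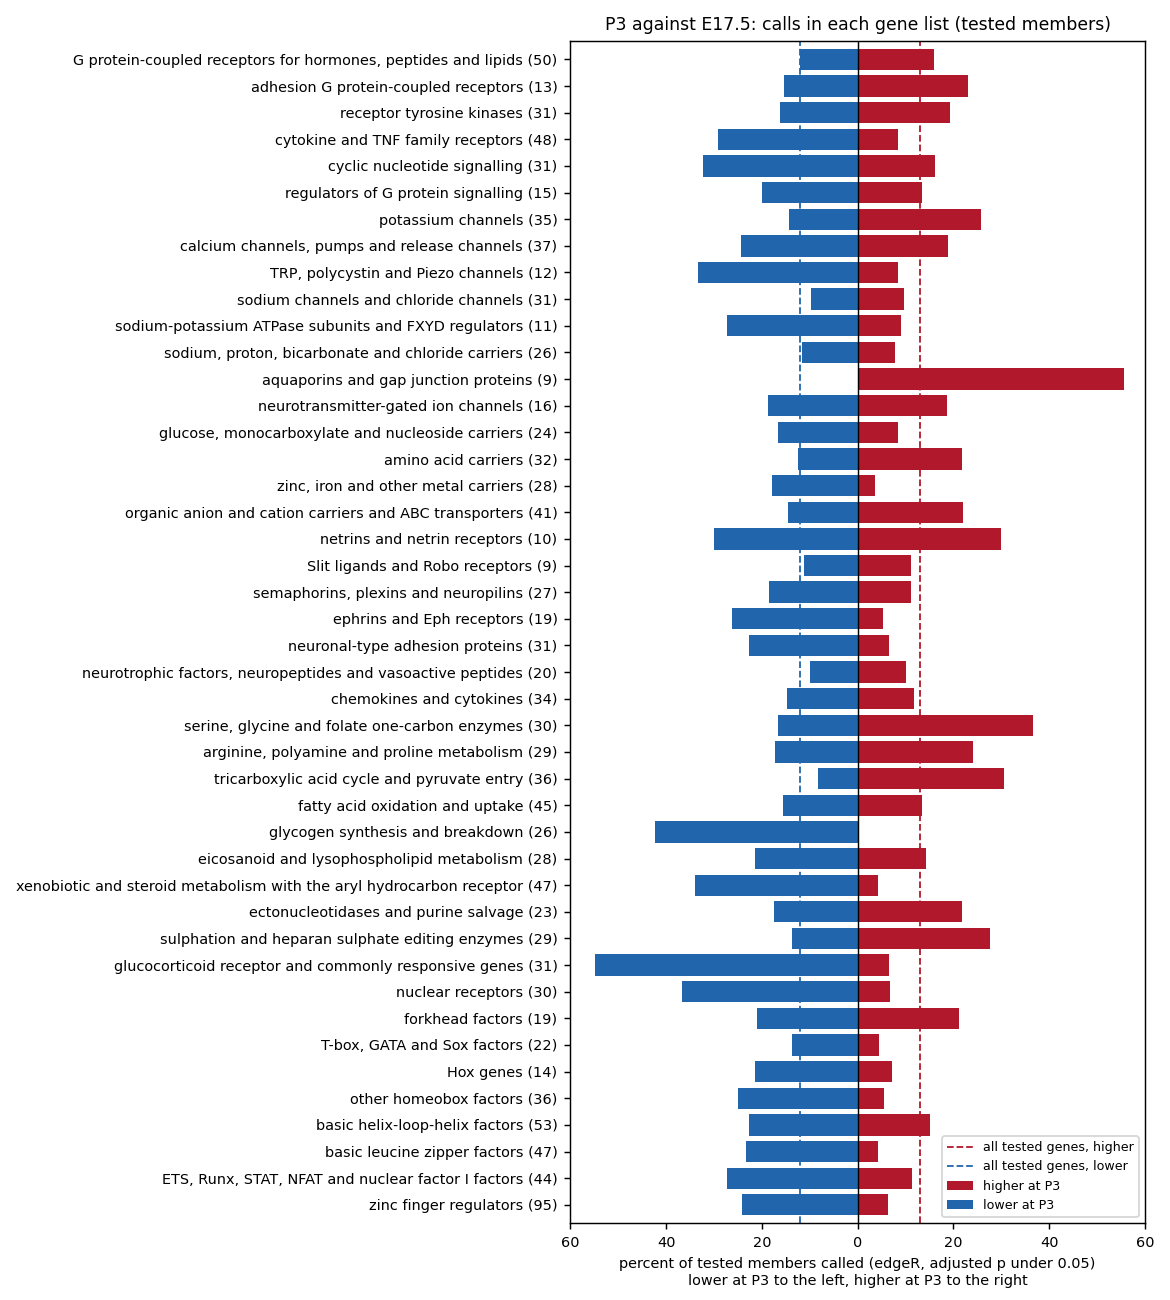
Percent of the tested members of each of 44 gene lists called higher (right, red) or lower (left, blue) at P3 than at E17.5, with the number of tested members in brackets; dashed lines mark 13.1% and 12%, the shares over all tested genes. The glucocorticoid and glycogen lists extend farthest to the left, and the small list of aquaporins and gap junction proteins and the one-carbon enzymes farthest to the right.

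Of 50 tested G protein-coupled receptors for hormones, peptides and lipids 8 rose and 6 fell, with 7 and 5 kept and a median of −0.12. The called share, 28%, was near the 25.1% over all tested genes, so the values below are those of single genes. Prokr2, a receptor for prokineticins (peptides first known for gut contraction and neuroblast migration; the gene lies on chromosome 2 at 132337733 to 132385447 of GRCm38), read 0.068, 0.0973 and 0 CPM in the E17.5 libraries and 97.2, 103 and 23.5 CPM at P3. All P3 libraries were above all E17.5 libraries, and P3 replicate 3 was far below the other 2. The call (edgeR adjusted p = 0.000114) was not made by limma-voom (adjusted p = 0.258). Its close relative Prokr1 also rose, from between 0.195 and 0.417 CPM to between 1.31 and 2.16 CPM (2.47 ± 0.36, adjusted p = 0.00085), and neither prokineticin gene was among the tested genes.

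Ackr3, a receptor that takes up and clears the chemokine Cxcl12 (chromosome 1, 90203980 to 90216751), was at 1.16, 0.779 and 0.887 CPM at E17.5 and at 21.2, 20.9 and 17.2 CPM at P3. Its log2 fold change was 4.37 ± 0.31 (adjusted p = 1.67e-05). The 2 sets of libraries were far apart and each was tight. Cxcl12 itself went the other way, from 15.6, 16.3 and 26.1 CPM to 7.98, 6.95 and 10.1 CPM, a fall of 1.21 ± 0.39 (adjusted p = 0.045) that did not pass without any 1 of the 6 libraries (adjusted p from 0.0561 to 0.153). Cxcr4, the signalling receptor for Cxcl12, read 2.72, 5.55 and 1.83 CPM and then 7.64, 4.44 and 12 CPM; its stages overlapped and it was not called (adjusted p = 0.0524).

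Among the receptors for sphingosine 1-phosphate, a lipid that acts on the cytoskeleton, S1pr3 fell while S1pr1 rose. S1pr3 went from 108, 105 and 68.8 CPM to 20.4, 22.3 and 31.5 CPM (−1.92 ± 0.22, adjusted p = 0.000208), and S1pr1 from 4.89, 3.6 and 4.43 CPM to 13.8, 13.8 and 6.76 CPM (1.41 ± 0.25, adjusted p = 0.00275). The stages did not overlap for either. S1pr2 was at between 5.79 and 11.1 CPM in all 6 libraries and was not called (−0.10 ± 0.28). Both endothelin receptors, which mediate contraction and endothelin clearance, fell: Ednrb from 258, 366 and 480 CPM to 55.3, 56.3 and 88.8 CPM (−2.46 ± 0.34, adjusted p = 0.000686), and Ednra, the type of muscle cells, from 93.4, 87.2 and 82.9 CPM to 51.6, 51.6 and 50.1 CPM (−0.78 ± 0.14, adjusted p = 0.00237). Every P3 library was below every E17.5 library in both.

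P2ry14, a receptor for UDP-sugars, rose from 34.8, 51.8 and 90.3 CPM to 205, 210 and 127 CPM (1.61 ± 0.3, adjusted p = 0.00348). Lgr6, a receptor that enhances Wnt signals through R-spondins, fell from 50.8, 83.6 and 122 CPM to 20, 20.7 and 17.6 CPM (−2.14 ± 0.25, adjusted p = 0.000262). Both are also used as markers of secondary crest myofibroblasts, so that 2 markers of these cells moved apart. Lpar1, a lysophosphatidic acid receptor, rose from 30.7, 11.6 and 18.3 CPM to 45.2, 42.4 and 47.8 CPM (1.16 ± 0.27, adjusted p = 0.0106; adjusted p = 0.0544 in the fit of the 6 libraries alone). Vipr1, a receptor for vasoactive intestinal peptide, was low at E17.5, between 1.63 and 3.03 CPM, and fell to between 0.057 and 0.0682 CPM (adjusted p = 0.00314).

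Cytokine receptors fell more often than they rose. Of 48 tested members of the cytokine and TNF receptor list 14 fell and 4 rose, with 8 and 1 kept. Without E17.5 replicate 1 the falls numbered 9 and without P3 replicate 2 they numbered 8; without E17.5 replicate 2 or P3 replicate 1 the rises numbered 2. Il6ra, the binding subunit for interleukin 6, read 22.2, 18.7 and 8.87 CPM and then 2.59, 2.91 and 2.09 CPM (−2.70 ± 0.31, adjusted p = 0.000214). Cntfr, the binding subunit for ciliary neurotrophic factor, went from 32.4, 46.3 and 40 CPM to 10.8, 9.11 and 11.1 CPM (−1.94 ± 0.16, adjusted p = 4.12e-05). Il6st, the shared signalling subunit, fell by less, from 83.3, 80.8 and 72.1 CPM to 52.7, 53.2 and 52.6 CPM (−0.57 ± 0.08, adjusted p = 0.000826). None of these overlapped between stages. Lifr, the partner for leukaemia inhibitory factor, was at between 19.5 and 28.2 CPM throughout and was not called (0.12 ± 0.23).

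Receptors for interleukins 4 and 13 followed the same direction. Il4ra fell from 28.3, 20.8 and 11.5 CPM to 4.91, 5.53 and 7.97 CPM (−1.72 ± 0.3, adjusted p = 0.00227). Il13ra1 fell from 16.7, 24.6 and 16.5 CPM to 7.16, 7.06 and 7.5 CPM (−1.41 ± 0.17, adjusted p = 0.000324). Il1rap, the accessory chain for interleukin 1, fell by 1.75 ± 0.16 on the log2 scale (adjusted p = 5.42e-05), and Fas, a death receptor, by 2.06 ± 0.44 (adjusted p = 0.00689). Lepr, the leptin receptor and also a marker of stromal cells in bone marrow, was the only kept rise of the list. It went from 2.38, 1.56 and 2.14 CPM to 7.91, 8.43 and 16.7 CPM (2.43 ± 0.33, adjusted p = 0.000636).

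Of the signal transducers below these receptors, Stat5b fell by 1.05 ± 0.13 (adjusted p = 0.000338) and Stat5a by 0.84 ± 0.18 (adjusted p = 0.00691). Stat3 read 275, 330 and 207 CPM at E17.5 and 114, 115 and 181 CPM at P3. Its fall of 0.98 ± 0.25 (adjusted p = 0.0146) did not pass without E17.5 replicate 2, P3 replicate 1 or P3 replicate 2 (adjusted p from 0.0623 to 0.0694).

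Among 31 receptor tyrosine kinases 6 rose and 5 fell, with 3 and 4 kept. The called share was 35.5%, against 25.1% over all tested genes. Without P3 replicate 3 there were 3 rises. Ntrk3, the receptor for neurotrophin 3, rose from 1.77, 2.34 and 0.939 CPM to 5.32, 5.7 and 4.73 CPM (1.68 ± 0.31, adjusted p = 0.00283). Ddr2, a receptor for fibrillar collagen, rose by 0.50 ± 0.12 (adjusted p = 0.0117; adjusted p = 0.0627 in the fit of the 6 libraries alone). Mertk, a receptor by which cells engulf apoptotic remains, fell by 2.52 ± 0.44 (adjusted p = 0.00233), from 30.6, 10.7 and 9.13 CPM to 3.61, 3.19 and 1.96 CPM. Its highest value was in E17.5 replicate 1. Insr, the insulin receptor, and Erbb2 fell by 0.64 ± 0.14 (adjusted p = 0.00827) and 0.59 ± 0.12 (adjusted p = 0.0053). Of 13 adhesion G protein-coupled receptors 3 rose and 2 fell, with 3 and 1 kept; 1 fell without E17.5 replicate 2, E17.5 replicate 3 or P3 replicate 3. The rises were Adgra3 (1.07 ± 0.17), Adgrl3 (0.76 ± 0.13) and Adgrl2 (0.51 ± 0.09), the last pair being latrophilins that bind teneurins, and the kept fall was Adgra2 (−0.56 ± 0.12, adjusted p = 0.00776).

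Genes that make and break cyclic nucleotides, the second messengers that relax contractile cells, were called in 15 of 31 cases, 5 higher and 10 lower, with 5 and 7 kept and a median of 0. Those named below include cyclases, which make cyclic AMP or cyclic GMP, and phosphodiesterases, which break them down. Gucy1b3, the obligate subunit of the nitric oxide receptor guanylate cyclase, went from 68.6, 69.7 and 121 CPM to 27.8, 28.4 and 24.9 CPM (−1.68 ± 0.21, adjusted p = 0.000374). Its partner Gucy1a3 read between 45.8 and 80.8 CPM and between 35.1 and 46 CPM, with overlap and no call (adjusted p = 0.0524). Pde5a, the phosphodiesterase that sildenafil inhibits (chromosome 3, 122728947 to 122859374), went from 95.9, 90.4 and 111 CPM to 299, 316 and 337 CPM (1.68 ± 0.11, adjusted p = 1.12e-05). The P3 libraries were all well above the E17.5 libraries.

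Pde1a, which calcium and calmodulin activate, rose by 1.40 ± 0.24 (adjusted p = 0.00181), and Pde7b, which degrades cyclic AMP, by 2.30 ± 0.26 (adjusted p = 0.000195). Of the adenylyl cyclases Adcy2 fell from 80.5, 112 and 82.9 CPM to 34.4, 34.4 and 34 CPM (−1.42 ± 0.13, adjusted p = 5.31e-05), Adcy5 and Adcy9 fell by 1.45 ± 0.22 and 1.43 ± 0.17, and Adcy7 rose by 1.19 ± 0.23 (adjusted p = 0.00388). Npr2, the receptor for C-type natriuretic peptide, which also makes cyclic GMP, fell by 0.50 ± 0.11 (adjusted p = 0.00938). Rgs5, which shortens signals from contractile receptors and is also a pericyte marker, fell from 60.1, 87.1 and 70.3 CPM to 14.3, 15.5 and 16.2 CPM (−2.24 ± 0.24, adjusted p = 0.000148). It is itself part of the pericyte marker sum given above.

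**Figure D2:**
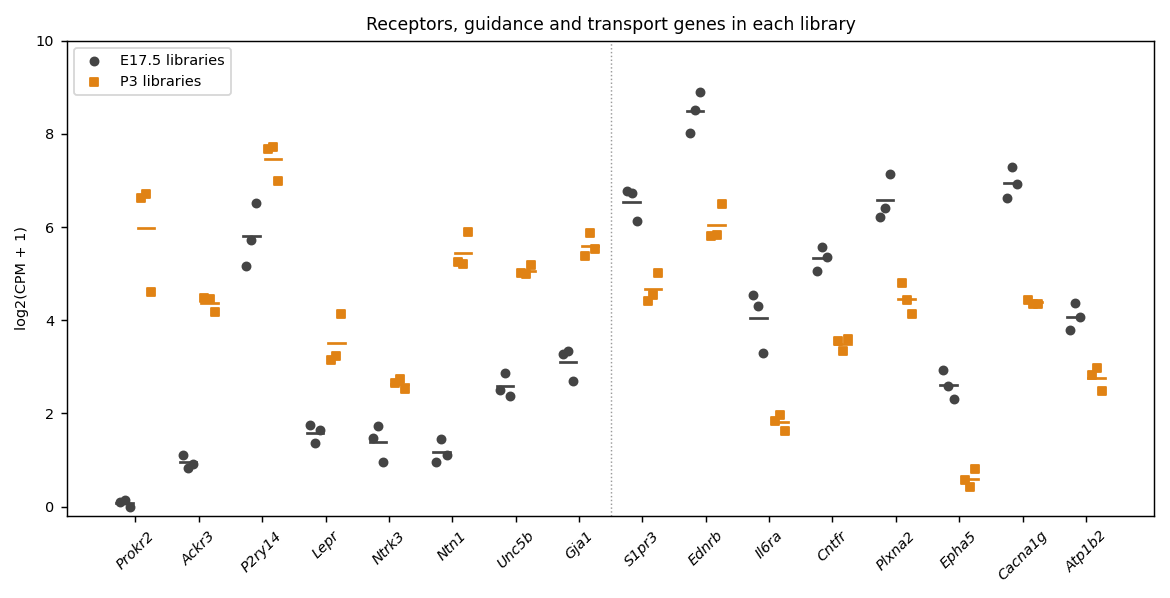
Level of 16 receptor, guidance and transport genes in each of the 3 E17.5 (dark circles) and 3 P3 (orange squares) libraries, as log2(CPM + 1), with a horizontal line at each stage's mean. The 8 genes left of the dotted line were called higher and the 8 to its right lower at P3, and no gene's stages overlapped. Separate stages were a condition of the rule by which genes were named, and 38.9% of all tested genes had them.

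Among ion channels, those for calcium changed in both directions. Of 37 calcium channels, pumps and release channels 7 rose and 9 fell, with 3 and 6 kept. The called share was 43.2%, against 25.1% over all tested genes. Without E17.5 replicate 2, E17.5 replicate 3 or P3 replicate 3 there were 4 rises. Cacna1g, a T-type channel that opens at low voltage (chromosome 11, 94408391 to 94474198), fell from 97.9, 156 and 121 CPM to 20.8, 19.5 and 19.5 CPM (−2.65 ± 0.18, adjusted p = 1.25e-05). Cacna1e, an R-type channel, fell from 7.14, 16.2 and 15.6 CPM to 1.57, 1.37 and 1.49 CPM (−3.13 ± 0.4, adjusted p = 0.000445). Cacna1c, the L-type channel of smooth muscle, rose from 23, 18.9 and 21.1 CPM to 30.2, 34.9 and 33.3 CPM (0.64 ± 0.1, adjusted p = 0.00132). The stages were separate for all 3.

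Stim1, the sensor of the calcium store, fell by 0.82 ± 0.12 (adjusted p = 0.000994), while Mcu, the pore of the mitochondrial calcium uniporter, and its regulator Micu2 rose by 0.68 ± 0.13 (adjusted p = 0.0036) and 0.54 ± 0.11 (adjusted p = 0.00644). Of the Piezo channels, which open on membrane stretch, Piezo1 rose from 8.7, 6.33 and 7.46 CPM to 15.5, 15.4 and 18 CPM (1.12 ± 0.14, adjusted p = 0.000396). Piezo2 read 25.5, 54 and 42 CPM and then 23.5, 19.9 and 26.4 CPM. Its stages overlapped, and its estimate of −0.80 ± 0.24 (adjusted p = 0.0321) lost the call without E17.5 replicate 2, E17.5 replicate 3, P3 replicate 1 or P3 replicate 2 (adjusted p from 0.0822 to 0.148).

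Potassium channels rose in 9 of 35 cases and fell in 5, with 4 and 2 kept. Without P3 replicate 3 there were 6 rises and without each of the other libraries 4 or 5; without P3 replicate 1 or 2 there were 3 and 2 falls. Falls outnumbered rises in the fit of the 6 libraries alone, 3 against 2, and without E17.5 replicate 3, 6 against 4, while limma-voom gave 5 rises and 2 falls. Kcnk2, a leak channel that stretch opens, rose from 1.9, 3.21 and 2.29 CPM to 10.1, 9.86 and 11.7 CPM (2.10 ± 0.27, adjusted p = 0.000429). Kcnb2, a delayed rectifier, rose from 0.68, 1.07 and 0.991 CPM to 5.32, 5.41 and 4.66 CPM (2.49 ± 0.18, adjusted p = 2.1e-05). Kcnk3, another leak channel, was at between 22.8 and 42.1 CPM in all libraries and was not called (0.17 ± 0.22).

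The sodium pump keeps sodium low and potassium high inside the cell, and of 11 tested members of its list 1 rose and 3 fell, with the same numbers kept. Atp1b2, a beta subunit, fell from 12.8, 19.7 and 15.8 CPM to 6.07, 6.84 and 4.59 CPM (−1.46 ± 0.27, adjusted p = 0.00339) and Fxyd1, the pump's regulator in muscle, by 0.72 ± 0.16 (adjusted p = 0.00933). The P3 libraries lay below all E17.5 libraries in both.

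In the list of aquaporins and gap junction proteins 5 of 9 tested members rose and none fell, with 3 kept and a median of 0.63; 3 rose without E17.5 replicate 1, E17.5 replicate 2, P3 replicate 1 or P3 replicate 2. Gja1, connexin 43 (chromosome 10, 56377330 to 56402513), went from 8.63, 9.15 and 5.53 CPM to 40.5, 57.8 and 45.1 CPM (2.63 ± 0.33, adjusted p = 0.000399). Gjc1, connexin 45, went from 40.2, 38.7 and 41.4 CPM to 68.3, 66 and 79.5 CPM (0.83 ± 0.14, adjusted p = 0.00161). Both had every P3 library above every E17.5 library.

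Of 24 carriers for glucose, monocarboxylates and nucleosides 2 rose and 4 fell, with 1 and 3 kept and a median of −0.03; 1 rose without E17.5 replicate 2, P3 replicate 1 or P3 replicate 3. The called share, 25%, was that of all tested genes (25.1%). Slc2a1, the main glucose transporter of fetal cells (chromosome 4, 119108711 to 119137983), read 27.9, 24.2 and 14.2 CPM at E17.5 and 3.14, 2.79 and 5.61 CPM at P3 (−2.52 ± 0.35, adjusted p = 0.000626). Slc2a3, a high-affinity glucose transporter, fell by 2.25 ± 0.38 (adjusted p = 0.00184), and Slc2a13, a myo-inositol carrier, by 1.94 ± 0.15 (adjusted p = 2.51e-05). Slc7a5, which brings in large neutral amino acids, rose from 4.96, 5.94 and 3.13 CPM to 11.5, 12.8 and 22.2 CPM (1.74 ± 0.28, adjusted p = 0.00142). Its partner chain Slc3a2 was at between 40.4 and 51.5 CPM throughout and was not called (−0.04 ± 0.11). Slc7a1, a carrier of arginine and lysine, rose by 1.13 ± 0.23 (adjusted p = 0.00479).

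Slc6a2, the noradrenaline transporter, fell from 4.49, 4.87 and 7.93 CPM to 0.136, 0.171 and 0.338 CPM (−4.71 ± 0.5, adjusted p = 0.000158). Of 32 amino acid and related carriers 7 rose and 4 fell, with 2 and 2 kept; 4 rose without E17.5 replicate 2, P3 replicate 1 or P3 replicate 3, and 2 fell without E17.5 replicate 3, P3 replicate 2 or P3 replicate 3. Of 28 carriers of zinc, iron and other metals 1 rose and 5 fell, with 1 and 3 kept, and 21.4% were called against 25.1% of all tested genes; 3 fell without E17.5 replicate 2, P3 replicate 1 or P3 replicate 2. Tfrc, the transferrin receptor, rose from 2.24, 3.31 and 2.45 CPM to 5.52, 5.81 and 6.55 CPM (1.17 ± 0.25, adjusted p = 0.00649), and Slc40a1, the iron exporter ferroportin, fell from 11, 11.1 and 13 CPM to 6.14, 6.15 and 3.72 CPM (−1.13 ± 0.23, adjusted p = 0.00502). The stages did not overlap in either. Scara5, a ferritin receptor and also an adventitial fibroblast marker, fell from 168, 333 and 290 CPM to 6.55, 2.79 and 8.78 CPM, and 2 of the 13 tested adventitial markers rose while 3 fell.

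Of 41 organic ion carriers and ABC transporters 9 rose and 6 fell, with 6 and 4 kept. Slco2a1, the prostaglandin uptake carrier, fell from 23.6, 38.1 and 38.2 CPM to 3.61, 3.19 and 3.17 CPM (−3.32 ± 0.37, adjusted p = 0.000205). Slco3a1, a related carrier, rose from 1.63, 2.34 and 1.98 CPM to 11.4, 13.4 and 9.93 CPM (2.55 ± 0.18, adjusted p = 1.48e-05). Abca1, which exports cholesterol and is a target of liver X receptors, fell by 2.06 ± 0.2 (adjusted p = 9.73e-05), from 53.7, 54.9 and 60.3 CPM to 15.1, 15.8 and 9.46 CPM. The gene of one such receptor, Nr1h3, fell as well (−1.43 ± 0.18, adjusted p = 0.000375).

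In the list of netrins and their receptors, which guide growing axons and migrating cells, 3 of 10 rose and 3 fell, with 3 and 1 kept; without P3 replicate 1 or 2 there was 1 fall. Ntn1, the netrin that attracts or repels growing axons depending on the receptor (chromosome 11, 68209364 to 68400823), read 0.951, 1.75 and 1.15 CPM at E17.5 and 36.9, 35.9 and 58.4 CPM at P3 (5.12 ± 0.31, adjusted p = 8.1e-06). Unc5b, a repulsive netrin receptor, rose with it, from 4.69, 6.33 and 4.22 CPM to 31.2, 31 and 35.5 CPM (2.69 ± 0.18, adjusted p = 1.36e-05). Neo1, an attractive netrin receptor, read 85.8, 56.2 and 41.3 CPM and then 35.3, 37.8 and 37.1 CPM. Its fall of 0.73 ± 0.2 (adjusted p = 0.0239) did not pass without any 1 P3 library (adjusted p from 0.0615 to 0.0762), and Ntn4, a netrin of basement membranes, fell by 1.27 ± 0.26 (adjusted p = 0.00571).

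Of 27 semaphorins, plexins and neuropilins 3 rose and 5 fell, with 2 and 4 kept. The called share, 29.6%, was near the 25.1% over all tested genes. Sema3a, a secreted repellent, rose from 8.09, 3.7 and 4.22 CPM to 11.3, 12.8 and 15.9 CPM (1.32 ± 0.28, adjusted p = 0.00678). Its co-receptor Nrp1 fell by 0.60 ± 0.12 (adjusted p = 0.00545). Of the plexins that pair with it, Plxna2 fell from 73.5, 83.9 and 139 CPM to 26.9, 20.7 and 16.6 CPM (−2.21 ± 0.25, adjusted p = 0.000208), and Plxna4 rose from 19, 23.7 and 25.1 CPM to 38.3, 39.5 and 43.2 CPM (0.84 ± 0.11, adjusted p = 0.000505). No library of either gene crossed into the other stage's range.

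Robo3, a receptor of the Robo family, fell from 2.24, 5.94 and 12.6 CPM to 0.205, 0.171 and 0.135 CPM (−5.29 ± 0.76, adjusted p = 0.000794; limma-voom adjusted p = 0.0847). The Slit receptors Robo1 and Robo2 were not called: Robo1 was at between 102 and 131 CPM (−0.11 ± 0.14) and Robo2 at between 160 and 244 CPM (−0.26 ± 0.15) in all libraries. Slit2 read 262 CPM in E17.5 replicate 1, 88.2 and 67.6 CPM in the others, and between 31.3 and 60.2 CPM at P3, and was not called (adjusted p = 0.0502). Of 19 ephrins and Eph receptors 1 rose and 5 fell, with 1 and 2 kept. The called share was 31.6%, against 25.1% over all tested genes. The falls numbered 2 without E17.5 replicate 2 or P3 replicate 3 and 3 without P3 replicate 1 or 2. There were 2 rises without E17.5 replicate 1. The kept falls were Epha4 (−1.32 ± 0.23, adjusted p = 0.00204) and Epha5, from 6.59, 5.06 and 3.96 CPM to 0.477, 0.342 and 0.743 CPM (−3.31 ± 0.56, adjusted p = 0.00188).

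Adhesion proteins best known from neurons fell in 7 of 31 cases and rose in 2, with 5 and 1 kept and a median of −0.45. The called share, 29%, was near the 25.1% over all tested genes. Without E17.5 replicate 1, E17.5 replicate 2 or P3 replicate 3 there was 1 rise. Opcml, a glycolipid-anchored protein of this group, fell from 38.4, 53 and 36.9 CPM to 9.48, 6.15 and 3.78 CPM (−2.72 ± 0.45, adjusted p = 0.0019). Nrxn3, a neurexin, fell from 33, 81.7 and 60.6 CPM to 23.3, 15.6 and 19.1 CPM (−1.60 ± 0.31, adjusted p = 0.0045). In both, the P3 libraries were all lower. The single tested marker of the Schwann and neuronal list was not called and that list summed to between 4.49 and 10.1 CPM in the 6 libraries.

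Of secreted peptides, Mdk, the growth factor midkine, rose from 209, 252 and 275 CPM to 502, 491 and 582 CPM (1.10 ± 0.16, adjusted p = 0.000989). Penk, the precursor of enkephalins, fell from 74.5, 164 and 89.6 CPM to 13.5, 10.5 and 14.3 CPM (−3.10 ± 0.45, adjusted p = 0.00102). Crh, corticotropin-releasing hormone, read 8.02, 19.5 and 62.3 CPM at E17.5 and 0.273, 0.057 and 0.203 CPM at P3. The E17.5 libraries differed widely among themselves but none came near the P3 values; its fall passed by edgeR (adjusted p = 0.0012) and not by limma-voom (adjusted p = 0.204).

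Enzymes of serine synthesis and mitochondrial one-carbon metabolism, which supply formate for purines and glycine for collagen, rose more often than they fell. Of 30 tested members 11 rose and 5 fell, with 6 and 2 kept and a median of 0.25. Without E17.5 replicate 2 there were 6 rises and without P3 replicate 3 there were 7; falls numbered 3, 2, 3 and 3 without E17.5 replicate 2 and P3 replicates 1, 2 and 3. Mthfd2, the mitochondrial folate dehydrogenase of embryonic and dividing cells (chromosome 6, 83305691 to 83325908), went from 1.09, 0.876 and 1.3 CPM to 6.62, 9.68 and 12.7 CPM (3.12 ± 0.25, adjusted p = 3.18e-05). Phgdh, the first enzyme of serine synthesis, went from 4.49, 2.04 and 6.94 CPM to 17.2, 23.1 and 41.4 CPM (2.57 ± 0.44, adjusted p = 0.00226). Psat1, the second, went from 3.81, 1.56 and 3.55 CPM to 14.9, 15.3 and 18.1 CPM (2.42 ± 0.33, adjusted p = 0.000639), and for all 3 the stages were separate.

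Mthfd1l, which releases mitochondrial formate, rose by 1.78 ± 0.25 (adjusted p = 0.000778). Psph, the third enzyme of serine synthesis, read between 4.69 and 5.5 CPM and between 5.18 and 8.87 CPM and was not called (0.46 ± 0.19, adjusted p = 0.101). In the arginine and polyamine list 7 of 29 rose and 5 fell, with 4 and 2 kept; without P3 replicate 1 or 2 there were 3 and 2 falls. Odc1 and Srm, enzymes of polyamine synthesis, rose by 0.94 ± 0.15 (adjusted p = 0.00161) and 1.5 ± 0.17 (adjusted p = 0.000223), and Sat1, which starts polyamine breakdown, fell by 1.06 ± 0.21 (adjusted p = 0.00489). Srm read 8.77, 5.26 and 7.46 CPM and then 20.1, 22.3 and 18.6 CPM, and Sat1 131, 132 and 77.8 CPM and then 48.6, 61.3 and 53.9 CPM. Glul, glutamine synthetase, fell from 167, 172 and 173 CPM to 55.6, 56.4 and 39.5 CPM (−1.76 ± 0.16, adjusted p = 6.83e-05).

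Genes of glycogen, the cell's glucose store, changed in 1 direction. None of 26 tested members rose and 11 fell, with 8 kept and a median of −0.69. The 11 included the synthase, the branching enzyme and a phosphorylase, so that both synthesis and breakdown enzymes were lower. Gys1, the synthase, went from 20.3, 11.8 and 12.1 CPM to 6.07, 5.35 and 3.04 CPM (−1.61 ± 0.28, adjusted p = 0.00243). Gbe1, the branching enzyme, went from 20, 23.1 and 18.1 CPM to 6.55, 5.53 and 5.74 CPM (−1.78 ± 0.14, adjusted p = 3.29e-05). Pygl, the liver-type phosphorylase, went from 39.1, 41.4 and 26.5 CPM to 12.3, 13.3 and 10 CPM (−1.58 ± 0.23, adjusted p = 0.000794). All 3 had their P3 libraries below their E17.5 libraries. Ppp1r3c, which brings phosphatase to glycogen, fell by 1.79 ± 0.37 (adjusted p = 0.00543). Pygb, the brain-type phosphorylase, was at between 15.1 and 23 CPM and was not called (−0.13 ± 0.14).

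Tricarboxylic acid cycle and pyruvate entry genes rose in 11 of 36 cases and fell in 3, with 8 and 3 kept and a median of 0.12, mostly by small amounts: only 1 rise reached 2-fold. That gene was Me1, the cytosolic malic enzyme that makes NADPH (chromosome 9, 86581371 to 86695953), from 4.49, 3.89 and 5.48 CPM to 28.6, 34.4 and 29.7 CPM (2.73 ± 0.16, adjusted p = 8.1e-06). Citrate synthase (Cs) rose by 0.61 ± 0.11 (adjusted p = 0.00246), Idh3a by 0.92 ± 0.13 (adjusted p = 0.000636), Mdh2 by 0.63 ± 0.13 (adjusted p = 0.00563) and Sdhb by 0.50 ± 0.1 (adjusted p = 0.00419). Pdk2, a kinase that shuts pyruvate dehydrogenase, fell by 0.89 ± 0.2 (adjusted p = 0.009).

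Fatty acid oxidation and uptake genes changed both ways, 6 of 45 higher and 7 lower, with 5 and 5 kept and a median of 0.03, a called share of 28.9% near the 25.1% over all tested genes. Lpl, lipoprotein lipase and also a lipofibroblast marker, rose from 7.88, 6.13 and 9.6 CPM to 36.6, 42.8 and 30.4 CPM (2.21 ± 0.22, adjusted p = 0.000103), and was the only 1 of the 15 tested alveolar fibroblast and lipofibroblast markers to rise. Of the others 2 fell, and none did without E17.5 replicate 1 or without any 1 P3 library. Angptl4, a secreted inhibitor of that lipase, rose with it, from 20, 11.8 and 5.84 CPM to 64.3, 54.7 and 51.7 CPM (2.18 ± 0.37, adjusted p = 0.00216). Cpt1a, the gate of mitochondrial fatty acid entry, rose by 1.11 ± 0.09 (adjusted p = 3.17e-05), and Acadsb, a short branched-chain acyl-CoA dehydrogenase, fell by 1.48 ± 0.19 (adjusted p = 0.000505).

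Enzymes of xenobiotic and steroid metabolism fell in 16 of 47 cases and rose in 2, with 11 and 2 kept and a median of −0.43. Fmo2, the flavin monooxygenase of lung (chromosome 1, 162874317 to 162898726), read 607, 709 and 385 CPM at E17.5 and 50.4, 33 and 41.1 CPM at P3 (−3.77 ± 0.51, adjusted p = 0.000721). Fmo1 went from 35.3, 27.3 and 46.1 CPM to 3.14, 3.93 and 5.27 CPM (−3.14 ± 0.51, adjusted p = 0.00177). Cyp2e1, a cytochrome that oxidizes ethanol, went from 21.6, 36.5 and 30.9 CPM to 0.818, 0.684 and 1.82 CPM (−4.74 ± 0.54, adjusted p = 0.00023). Each of these enzymes was lower in all P3 libraries than in any E17.5 library. Xdh, xanthine oxidoreductase, fell in the purine list from 65.4, 62.3 and 20.2 CPM to 4.43, 3.3 and 5.34 CPM (−3.50 ± 0.39, adjusted p = 0.00022).

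Among extracellular enzymes, Enpp2, autotaxin, which makes lysophosphatidic acid, fell from 345, 664 and 324 CPM to 80.5, 64.8 and 105 CPM (−2.41 ± 0.29, adjusted p = 0.000301), against the rise of its receptor gene Lpar1 above. Enpp3, which cleaves extracellular nucleotides, rose from 0.612, 0.292 and 0.991 CPM to 4.43, 5.3 and 6.08 CPM (2.99 ± 0.42, adjusted p = 0.000713). Genes of sulphation and heparan sulphate editing rose in 8 of 29 cases and fell in 4, with 7 and 1 kept. The falls numbered 2 without E17.5 replicate 2 and 1 without E17.5 replicate 1 or any 1 P3 library. Hs3st1, a 3-O-sulphotransferase, rose from 0.612, 0.584 and 0.574 CPM to 8.93, 8.54 and 4.32 CPM (3.61 ± 0.34, adjusted p = 7.73e-05). Sulf2, which removes sulphate from the outside of the cell, was the kept fall, from 23.2, 35.3 and 46.4 CPM to 4.02, 5.13 and 5.07 CPM (−2.88 ± 0.37, adjusted p = 0.000427). In both genes the stages were well apart.

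**Figure D3:**
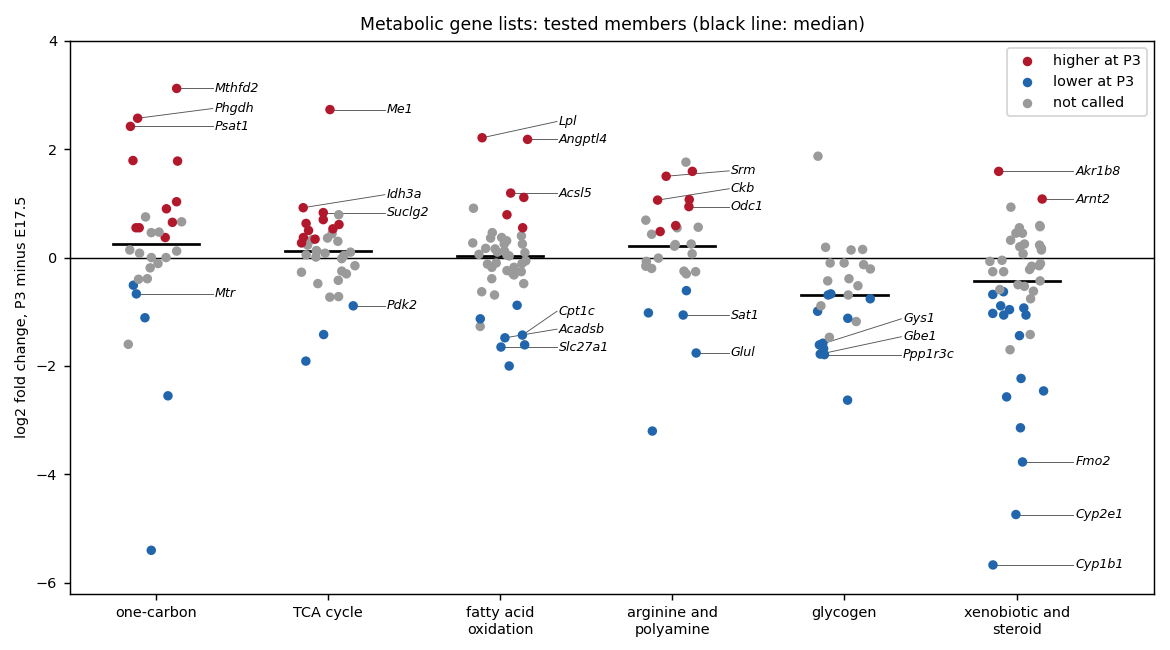
Log2 fold change (P3 minus E17.5) of every tested member of 6 metabolic lists, one point per gene, red where called higher, blue where called lower and grey where not called, with a black line at each list's median and the farthest named genes labelled. The glycogen list has 11 blue points and no red one, and the one-carbon list has 11 red points and 5 blue ones.

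The glucocorticoid receptor and genes that commonly respond to it had the largest share of calls among the 44 topical lists, 61.3%. The list of netrins and their receptors was close, at 60% of 10. Of the lists of cell type markers, those of erythroid cells (80% of 5) and secondary crest myofibroblasts (76.5% of 17) had larger shares. Members and lists were chosen with earlier results of these data known, so this rank is a description only. The glucocorticoid receptor, on binding the hormone, enters the nucleus and binds DNA at paired palindromic half-sites. Of 31 tested members 17 fell, all by at least 2-fold, and 2 rose; 15 and 2 were kept, and the falls numbered between 15 and 18 when 1 of the 6 libraries was left out. The list's median was −1.28, against −0.05 over all genes. A fall of at least 2-fold was called in 5.04% of all tested genes.

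Nr3c1, the receptor itself, read 115, 117 and 142 CPM at E17.5 and 63.8, 56.5 and 52.8 CPM at P3 (−1.11 ± 0.11, adjusted p = 0.000126). Fkbp5, a co-chaperone that restrains the receptor, read 88.5, 90.6 and 81.8 CPM and then 13.8, 11.7 and 19.2 CPM (−2.55 ± 0.2, adjusted p = 2.71e-05). Crispld2, a secreted protein of lung mesenchyme, read 98.8, 178 and 116 CPM and then 10.8, 6.84 and 11.8 CPM (−3.74 ± 0.28, adjusted p = 2.42e-05). In each the E17.5 libraries were all higher, with a wide gap. Hif3a, Zbtb16 and Klf15, transcription regulators, fell by 5.50 ± 0.33, 4.99 ± 0.38 and 3.05 ± 0.66, and Klf9, Tsc22d3 and Cebpd by 1.28 ± 0.2 (adjusted p = 0.00132), 1.76 ± 0.37 (adjusted p = 0.00712) and 1.36 ± 0.29 (adjusted p = 0.00697).

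Hsd11b1, the enzyme that regenerates active glucocorticoid inside cells, read 166 CPM in E17.5 replicate 1, 37.7 and 26.4 CPM in the other E17.5 libraries, and 15.8, 13.8 and 9.12 CPM at P3. Its fall of 2.57 ± 0.78 (adjusted p = 0.0388) came to 1.31 without E17.5 replicate 1 (adjusted p = 0.153) and did not pass without any 1 P3 library (adjusted p from 0.0883 to 0.108). Per1, a clock gene that the hormone also induces, fell by 1.15 ± 0.29 (adjusted p = 0.0148), a call not made without P3 replicate 2 or 3 (adjusted p = 0.0645 and 0.0569). Several members did not pass: Sgk1 read 52.6, 62.2 and 42.2 CPM and then 37.4, 63 and 97.5 CPM (adjusted p = 0.456), and Dusp1 between 125 and 236 CPM and between 92.4 and 155 CPM (adjusted p = 0.393). The 2 members that rose were Angptl4 and Nfkbia. Nfkbia, the inhibitor that holds NF-κB in the cytoplasm, went from 66.7, 78.6 and 55.3 CPM to 220, 259 and 246 CPM (1.85 ± 0.21, adjusted p = 0.000205).

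**Figure D4:**
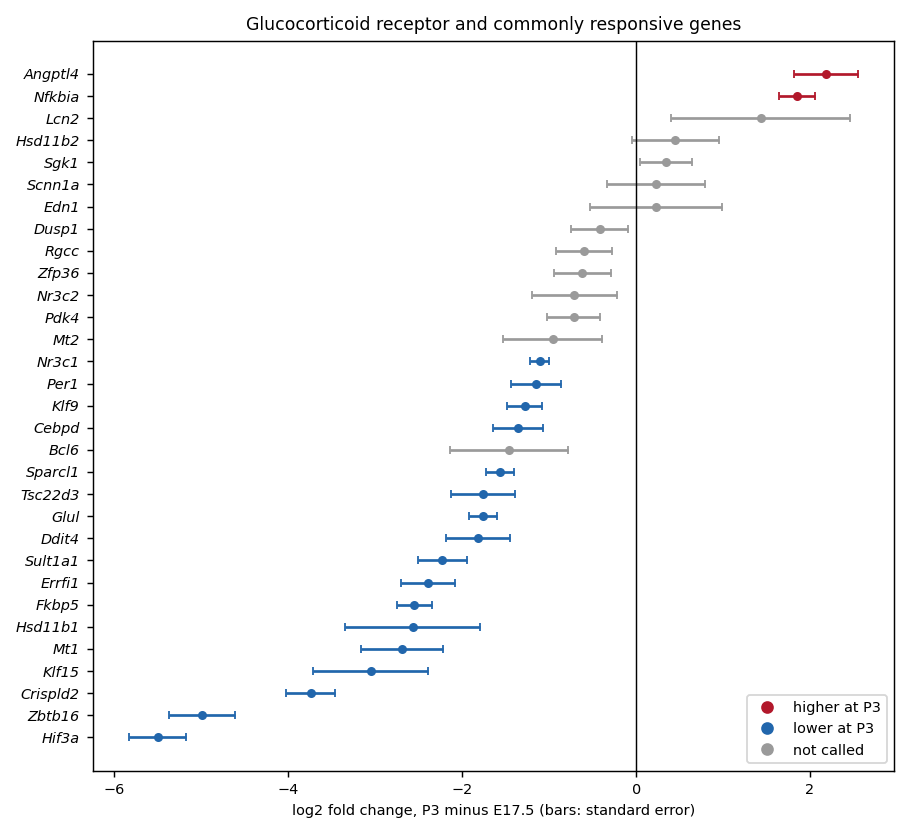
Log2 fold change (P3 minus E17.5) with its standard error for the 31 tested members of the glucocorticoid list, blue where called lower, red where called higher and grey where not called. The 17 blue genes run from Nr3c1 at −1.11 to Hif3a at −5.50, and Angptl4 and Nfkbia are the red ones.

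Promoter sequences for 24 of these 31 genes (250 bases before to 50 after the start site, RefSeq, GRCm38.p6) were searched on both strands for the letters GNACANNNTGTNC, the palindrome the receptor binds, where N is any base. It was found in 2 of the 24, Mt1 and Sgk1, and in 38 of 10196 tested genes with a promoter sequence (0.373%). The NF-κB letters GGGANTTTCC were found in 1 of the 24, Nfkbia, and in 51 of the 10196 genes (0.500%). The matches are printed with 12 bases on either side, motif in capitals, because they show the binding letters next to a member that fell (Mt1), one that was not called (Sgk1) and one that rose (Nfkbia), in the direction of transcription.
Mt1, chr8:94178983-94179019, plus strand: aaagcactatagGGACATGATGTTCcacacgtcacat
Sgk1, chr10:21993690-21993726, plus strand: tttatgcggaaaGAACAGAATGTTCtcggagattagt
Nfkbia, chr12:55492655-55492688, minus strand: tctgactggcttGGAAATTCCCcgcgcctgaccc
The first match starts 94, the second 188 and the third 29 bases before the start site. Mt1, a metallothionein, read 87.1, 51.4 and 25.6 CPM and then 10.6, 9.11 and 5.74 CPM (−2.69 ± 0.47, adjusted p = 0.00257). Genes without a match have none of these letters in this window only, and a match is a description of the sequence.

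In the whole list of nuclear receptors falls outnumbered rises, 11 of 30 against 2, with 10 and 1 kept and a median of −0.29. There was 1 rise without P3 libraries 1, 2 or 3 or E17.5 libraries 1 or 3. Besides Nr3c1 and Nr1h3, the fatty acid receptor Ppard (−1.04 ± 0.23, adjusted p = 0.00823) and the retinoic acid receptor Rara (−0.76 ± 0.17, adjusted p = 0.00798) fell. Esr1, the oestrogen receptor, and Thrb, a thyroid hormone receptor, were low: Esr1 fell from between 2.58 and 5.45 CPM to between 0.136 and 0.743 CPM, and Thrb from between 2.09 and 3.99 CPM to between 0.968 and 1.16 CPM. The kept rise was Nr1d2, a repressor of the circadian clock, from 5.71, 7.4 and 7.82 CPM to 13.9, 15.2 and 18.8 CPM (1.19 ± 0.16, adjusted p = 0.000615).

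Among the other transcription factor families falls outnumbered rises in most. Etv4, an ETS factor induced by fibroblast growth factor signals (chromosome 11, 101769742 to 101785371), read 4.35, 1.85 and 5.32 CPM at E17.5 and 45.1, 50.9 and 64.6 CPM at P3 (3.77 ± 0.31, adjusted p = 4.03e-05). Its relative Etv5 went from 5.57, 6.03 and 5.32 CPM to 17.1, 16.5 and 16 CPM (1.55 ± 0.15, adjusted p = 7.71e-05). Both were higher in all P3 libraries; Etv5 is also an alveolar epithelial marker, and the 19 markers of that list summed to between 148 and 198 CPM and then to between 199 and 285 CPM, with 4 higher and 1 lower. Erg, an ETS factor of endothelium and cartilage, fell from 14.8, 28.2 and 44.3 CPM to 7.37, 4.22 and 5.2 CPM (−2.38 ± 0.39, adjusted p = 0.00173), and Ets2 fell by 1.0 ± 0.09 (adjusted p = 6.83e-05). The ETS, Runx, STAT, NFAT and nuclear factor I list had 5 of 44 higher and 12 lower, with 3 and 7 kept; without P3 replicate 1 there were 3 rises.

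Twist1, a helix-loop-helix factor of embryonic mesenchyme (chromosome 12, 33957671 to 33959829), rose from 0.068, 0.195 and 1.46 CPM to 7.23, 7.12 and 13.6 CPM (3.85 ± 0.7, adjusted p = 0.00314). Zeb1, which works with it in mesenchymal cells, rose from 19.9, 23.9 and 32.1 CPM to 60.4, 66.2 and 48.6 CPM (1.20 ± 0.17, adjusted p = 0.000719), while Snai1 fell from 58.2, 71.7 and 42.6 CPM to 18, 15.3 and 25.1 CPM (−1.56 ± 0.23, adjusted p = 0.000989). The 3 factors, often named together as drivers of a mesenchymal state, thus did not share a direction. Id4, an inhibitor of helix-loop-helix factors, rose by 1.62 ± 0.26 (adjusted p = 0.00143) and Bhlhe40, a clock-linked repressor, fell by 1.54 ± 0.25 (adjusted p = 0.00159). In that family 8 of 53 rose and 12 fell, with 5 and 8 kept.

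Homeobox factors outside the Hox clusters rose in 2 of 36 cases and fell in 9, with 2 and 6 kept. Their called share was 30.6%, against 25.1% over all tested genes. Meox1, a factor linked to fibroblast activation, rose from 2.85, 6.33 and 6.47 CPM to 22.8, 27.1 and 19.7 CPM (2.16 ± 0.43, adjusted p = 0.00475). Mkx, a tendon factor, fell from 29.2, 23.9 and 27.1 CPM to 7.71, 4.79 and 7.84 CPM (−1.98 ± 0.35, adjusted p = 0.00232), and Six4 from 3.53, 6.03 and 7.2 CPM to 0.546, 0.57 and 1.15 CPM (−2.88 ± 0.41, adjusted p = 0.000771). The stages did not overlap for these. Of the forkhead factors, Foxp1 rose from 35.8, 58.4 and 46.3 CPM to 100, 103 and 117 CPM (1.19 ± 0.2, adjusted p = 0.00199) and Foxp2 fell from 34.5, 85.1 and 50.7 CPM to 22.7, 16.8 and 16.9 CPM (−1.59 ± 0.35, adjusted p = 0.00861). Foxf1, the forkhead factor that marks lung mesenchyme, was at between 121 and 199 CPM and not called (−0.13 ± 0.16), and neither was Tbx4, at between 168 and 209 CPM (0.06 ± 0.15).

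Zinc finger regulators had 6 of 95 higher and 23 lower, with 4 and 16 kept. Their called share was 30.5%, against 25.1% over all tested genes. Zfpm2, a partner of GATA factors, rose from 11.3, 14.9 and 16.8 CPM to 44.1, 43.8 and 35.1 CPM (1.51 ± 0.14, adjusted p = 7.73e-05), and Gli3, of the hedgehog pathway, by 0.62 ± 0.09 (adjusted p = 0.00101). In the leucine zipper list 27.7% were called, against 25.1% of all tested genes. Of its 47 tested members 2 rose and 11 fell, with 1 and 4 kept. Its falls numbered 7 without E17.5 replicate 2 or P3 replicate 1 and 5 without P3 replicate 2, and 1 gene rose without E17.5 replicates 2 or 3 or P3 replicates 1 or 3. Jdp2, a repressor of AP-1 sites, fell from 60.5, 83.5 and 52.2 CPM to 19.6, 14.6 and 15.9 CPM (−1.97 ± 0.21, adjusted p = 0.000143).

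The later stages give the levels of these genes after P3. P7 differed from P3 in 1 tested gene (0.00594%), and that comparison shares the P3 libraries. A missing call does not show that a level stayed the same. Ednrb had means of 66.8 CPM at P3, 13.5 CPM at P7 and 8.15 CPM at P10, with no call between P3 and P7 (edgeR adjusted p = 0.0643). The comparison of P10 with P7 shares no library with the one described here; 1.40% of tested genes were higher and 2.25% lower at P10. Of the 17 lowered genes of the glucocorticoid list, Cebpd, Klf9 and Mt1 were then higher at P10 than at P7, Fkbp5 and Hif3a lower, and the others not called. Cebpd stood at means of 126 CPM at P7 and 360 CPM at P10 (adjusted p = 0.0264), and Fkbp5 at 7.97 CPM and 3.46 CPM (adjusted p = 0.0172).

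Some lowered genes were higher again at P10. Fmo2 had a mean of 29.4 CPM at P7 and of 154 CPM at P10 (adjusted p = 0.0308), and Cyp2e1 of 1.59 CPM and 9.67 CPM (adjusted p = 0.0246). Rgs5 went from 27.8 CPM to 68.2 CPM (adjusted p = 0.0198) and Sat1 from 57.5 CPM to 126 CPM (adjusted p = 0.0235). Il1rap, Il6st, Bhlhe40 and Fosl2 also passed in that direction. Other lowered genes stayed low, with no call between P7 and P10: Slc2a1 had means of 2.04 and 2.29 CPM, Cacna1g of 19.7 and 26.9 CPM, and Slco2a1 of 1.66 and 3.25 CPM. Some genes that rose at P3 were also called between P7 and P10. Psat1 was lower at P10 (3.77 CPM, from 11.4 CPM at P7, adjusted p = 0.0291), as were Abca5, Arnt2 and Foxm1 among others. Adgrl3 was higher still (160 CPM, from 104 CPM at P7, adjusted p = 0.0322). Ackr3, Ntn1, Unc5b, Gja1 and Pde5a were not called between P7 and P10.

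**Figure D5:**
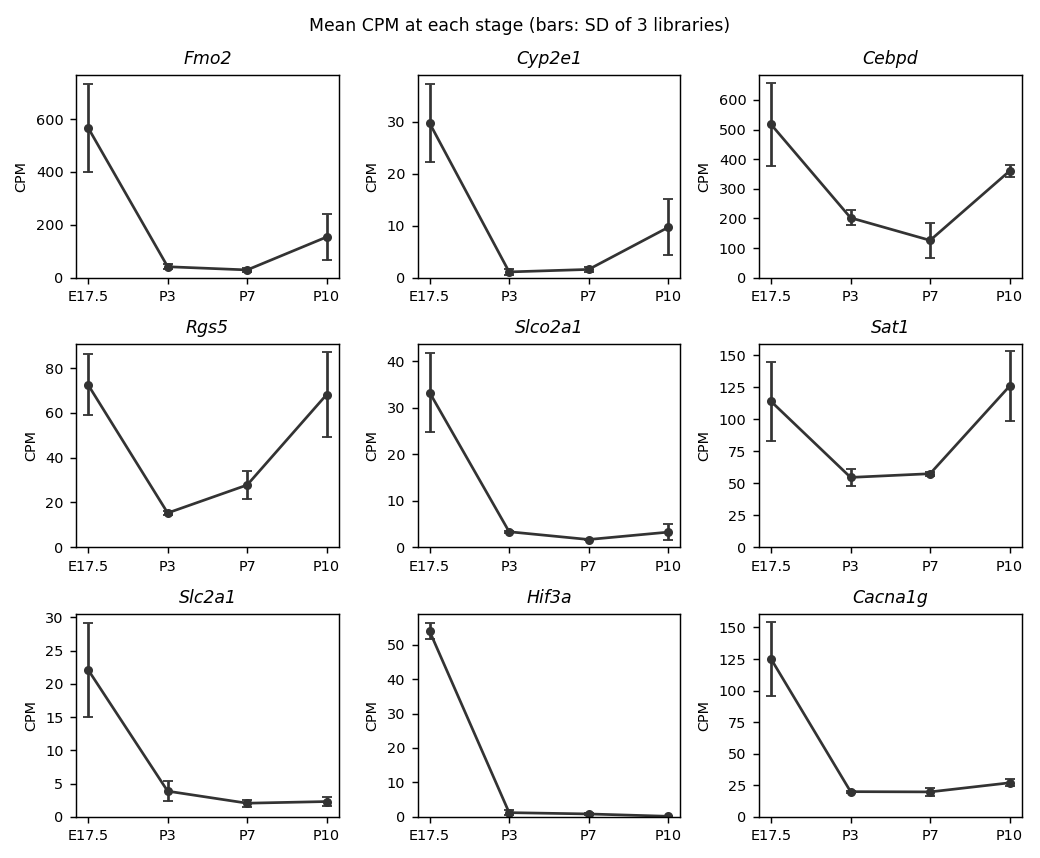
Mean CPM with the SD of 3 libraries at E17.5, P3, P7 and P10 for 9 genes that were lower at P3 than at E17.5. Fmo2, Cyp2e1, Cebpd, Rgs5 and Sat1 are higher at P10 than at P7, Hif3a is lower, and Slc2a1, Slco2a1 and Cacna1g were not called between those stages.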

How the data were processed

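RNA-seq was made by the authors from cells sorted for dsRed and GFP, with SMART-seq v4 Plus ultra-low input stranded total RNA libraries, per the labels' protocols; the labels also name the molecule polyA RNA. The deposited table gives estimated counts (scaled gene counts, whole numbers) for 12 libraries, 3 per stage; GRCm38 is named in the submitters' processing notes. Aligner, quantifier and annotation were not given in the sources used here. Because the counts appear scaled by gene length, no limit is given for a count of 0. From these, 1 model of all 12 libraries was fitted with edgeR 4.0.16 in R 4.3.3 (TMM scaling, filterByExpr, robust quasi-likelihood test, Benjamini-Hochberg adjustment over 16827 genes, threshold 0.05). Fold changes are log2 with standard errors from the F statistic. The method was tested on simulated counts. Replicate libraries differed by more than sampling noise in every pair. Alternatives were other scalings, filters, tools (DESeq2 1.42.0, limma 3.58.1), a replicate block and leaving out each library.

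The members, gene lists, motifs and named genes were chosen with earlier results of these data known. Named genes were, per list, up to 4 highest and 4 lowest kept calls with a mean of at least 5 CPM in the higher stage and separate stages, besides the reporter genes; 25 called genes outside this rule and the uncalled genes were named after their values were seen. Positions are from GENCODE M21 (GRCm38) by symbol. Results of some genes are not reported here.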

Additional observations from a re-analysis of the deposited data

How the results depend on the processing

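The main counts were 2201 genes higher and 2024 lower. A test against a fold of 1.5 (glmTreat) gave 725 and 530. A fit of only the 6 compared libraries gave 1515 and 1252. Leaving out 1 of the 12 libraries gave from 1627 to 2379 higher and from 1261 to 1926 lower. DESeq2 gave 2660 and 2451, limma-voom 2000 and 1867, and no filter on low counts 1905 and 1570. The other scalings and filters were within 1.5 times of the main counts. Replicate numbers did not pair the samples: same-numbered E17.5 and P3 libraries had correlations of deviations of 0.00457, −0.128 and −0.195, and not every library correlated best with its own number. With the replicate number as a block, 1980 genes were higher and 1706 lower. Of 226 genes chosen for naming none reversed. DESeq2 kept the call of each, and the 1.5-fold test ended 71 calls. Limma-voom ended those of Anxa8, Crh, Prokr2, Robo3 and Scgb1a1, the fit of the 6 libraries those of Ddr2, Slc39a13, Hsd11b1, Neo1, Lpar1 and Piezo2, the replicate block those of Hsd11b1 and Piezo2, no filter those of Hsd11b1 and Cxcl12, and upper-quartile scaling that of Cxcl12; the cause was not tested. The direction of the median over all genes did not change between scalings (−0.05 to −0.02).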
